A study of Mus musculus with 18 samples.

Results

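Dendritic cells grown from the bone marrow of wild-type C57BL/6 mice were given interleukin-10 (IL-10) together with TGF-beta, without lipopolysaccharide (LPS), and were compared with cells of the same kind kept in medium. The comparison took the 3 wild-type libraries labelled with both cytokines and no LPS and the 3 wild-type libraries labelled with medium, which are 6 of the 18 libraries of the study, and covered all 23420 genes in the files. All 6 libraries come from cultures grown in 20 ng/ml GM-CSF, a growth factor that drives marrow progenitors toward dendritic cells, that were re-plated on day 9. After 8 hours of treatment, live cells high for CD11c, the surface integrin used to mark dendritic cells, were sorted and their RNA was sequenced. The doses of IL-10 and TGF-beta are not given in the sources used here. The other libraries are wild-type cells given LPS alone or LPS with both cytokines, used below to set the cytokine effect beside its value under LPS, and Bat3 fl/fl CD11c Cre cells in medium or LPS, which entered the shared count filter, the scaling and the estimate of spread but no comparison. Their Cre recombinase is driven from the CD11c promoter, so Bat3 is removed in CD11c-expressing cells. The labels speak of 5 biological replicates in one place and of triplicates in another and do not tie the libraries to animals or cultures, so p-values measure only the spread among these samples.

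IL-10 binds a receptor made of IL10RA and IL10RB, which activates the kinases JAK1 and TYK2 and the transcription factor STAT3. STAT3 in turn raises SOCS3 and a set of repressors that dampen inflammatory genes in myeloid cells. TGF-beta binds TGFBR2 and TGFBR1, which phosphorylate SMAD2 and SMAD3; these act with SMAD4 and raise their own inhibitor SMAD7. Both cytokines are known for keeping dendritic cells immature and tolerogenic, with less antigen presentation and less costimulation. Type I interferons, a separate system, act through a complex of STAT proteins and IRF9 on genes with an interferon-stimulated response element (ISRE) and are usually raised by microbial products such as LPS.

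The 6 libraries held 9948715 to 11625458 expected counts, within the range of 8056831 to 12068759 over the 18 libraries, and Rn45s, a ribosomal RNA precursor, took 6.38% to 8.88% of them. A chi-square test of replicate counts gave 7.95 to 19.8 per degree of freedom, so no library repeated another. Markers of the sorted cell type were present in medium, with Itgax (which encodes CD11c) at 1014, 937 and 680.4 CPM (counts scaled by library size, with sizes adjusted by TMM) and Zbtb46, a transcription factor of conventional dendritic cells, at 19.7, 20.1 and 11.9 CPM. Flt3, another defining receptor, had too few counts to be tested. Bag6, the current name of Bat3, stood at 22.8, 24.6 and 23.1 CPM in medium and 26.0, 26.4 and 25.9 CPM with the cytokines (adjusted p = 0.48).

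A pair of libraries stood apart from their groups in genes of mature dendritic cells. Ccl22, a chemokine of mature dendritic cells, was at 827, 761 and 187 CPM in the medium libraries 1, 2 and 3 and at 292, 5.84 and 6.58 CPM in the cytokine libraries 1, 2 and 3. Ccr7, the receptor that guides dendritic cells to lymph nodes, was at 212, 216 and 17.2 CPM and 85.3, 7.19 and 2.06 CPM in the same order. Il12b, which encodes the p40 subunit of IL-12 and IL-23, reached 0.679, 0.858 and 0.168 CPM in medium and 22.7, 0.169 and 0.164 CPM with the cytokines. Thus cytokine library 1 was high, and medium library 3 was low, in these genes. Values without one or both of these libraries are given below where a call or a count rests on them. The libraries were picked by these same genes. For genes of mature dendritic cells a larger fall without them was therefore built in, and its p tests nothing. Markers of other cell types also differed between the groups. Summed granulocyte, monocyte and macrophage markers were higher with the cytokines, with the values given below. Summed conventional dendritic cell markers were lower, mostly through H2-Ab1 and Itgax. The part of these cell type markers in the results that follow was not tested.

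Of 11876 genes tested with the edgeR quasi-likelihood test, 4175 (35.2%) had a Benjamini-Hochberg adjusted p under 0.05 and are called changed. With the cytokines 2170 (18.3% of the tested genes) were higher and 2005 (16.9%) lower, and the median log2 fold change of all tested genes was -0.0016. At least 2-fold changes made up 1548 of the calls, which is 13% of the tested genes. Of the tested genes 890 were at least 2-fold higher (7.49%) and 658 at least 2-fold lower (5.54%). The libraries of the groups did not overlap for 2876 genes that were higher (24.2%) and 2759 that were lower (23.2%). Of the called genes, 3945 had such separate libraries and 230 had libraries that overlapped. Without cytokine library 1 and medium library 3, 3619 genes were called, 1896 higher and 1723 lower. These percentages are the background against which the counts for each gene list are read. On the scale of the deposited TPM values (limma on log2(TPM + 1)) the median gene shifted by -0.12, and 34.1% of the calls were higher, against 52.0% with TMM scaling and 42.1% with upper-quartile scaling.

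The largest rises were mostly antiviral genes that interferons are known to induce. Of the 12 named genes that rose most, Oasl1, Rtp4, Rsad2, Oas2, Irf7, Oasl2, Ifit3 and Ifit1 are on the list of interferon-stimulated genes. Rtp4, a receptor-transporting protein with antiviral activity, stood at 1.44, 0.943 and 0.925 CPM in medium and 133, 136 and 129 CPM with the cytokines, a 119-fold rise (log2 fold change 6.89 ± 0.19, adjusted p = 2.4e-16; ± after a log2 fold change is its standard error). Oasl1 (chr5:114923143-114937911, GRCm38.p6), an oligoadenylate synthetase-like protein that represses Irf7 translation, was at 0.679, 0.0858 and 0.252 CPM and then 109, 60.8 and 46.9 CPM (7.68 ± 0.51, adjusted p = 2.8e-08). Irf7 (chr7:141263183-141266499), the transcription factor that amplifies interferon production, went from 5.43, 3.09 and 3.53 CPM to 367, 339.9 and 227 CPM (6.27 ± 0.21, adjusted p = 3.8e-14). The groups were separate for all 3 of these genes, by more than 10-fold between the nearest libraries. Rsad2, which encodes the antiviral enzyme viperin, was at 1.02, 1.97 and 0.757 CPM and 225, 86.2 and 66.0 CPM (6.64 ± 0.64, adjusted p = 3.2e-06), with cytokine library 1 the highest.

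The other genes among the 12 are not on the list of interferon-stimulated genes, which does not hold every gene that interferons induce. Slfn4, a Schlafen gene of monocytes and macrophages, rose from 5.6, 4.37 and 1.43 CPM to 684, 847 and 407 CPM (7.41 ± 0.51, adjusted p = 1.0e-07). Ly6a, which encodes the surface protein Sca-1, rose from 10.3, 9.95 and 12.7 CPM to 762, 979.9 and 674 CPM (6.20 ± 0.19, adjusted p = 3.9e-15). Thbd, thrombomodulin, an anticoagulant receptor also used as a dendritic cell marker, rose from 0.849, 0.515 and 0.841 CPM to 48.9, 67.0 and 44.6 CPM (6.16 ± 0.29, adjusted p = 2.3e-12). In none of these did the lowest cytokine library come near the highest medium library. Pydc3 rose by 6.30 on the log2 scale (adjusted p = 2.1e-09); it belongs to a family of near-identical interferon-inducible genes, so its reads may be shared with relatives.

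**Figure D1:**
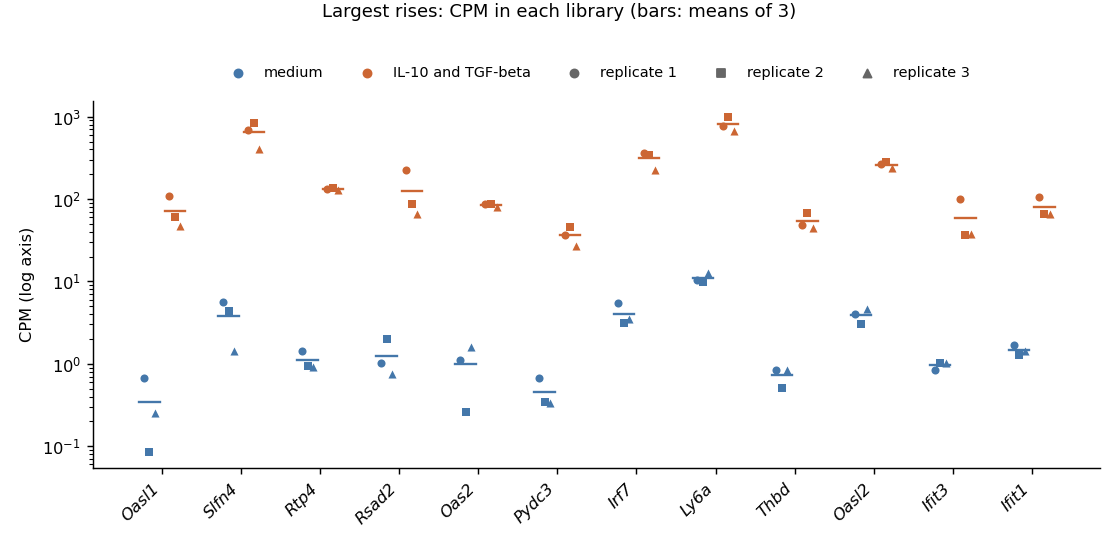
CPM on a log axis in each of the 3 medium and 3 cytokine libraries for the 12 genes that rose most, with horizontal bars at the group means and symbols for the replicate number. In each gene the cytokine libraries lie above the medium libraries, for Rtp4 at 133, 136 and 129 CPM against 1.44, 0.943 and 0.925 CPM.

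As a list, 36 of 38 type I interferon-stimulated genes rose and none fell, with a median log2 fold change of 2.58. Gbp2 and Gbp5, GTPases that interferon-gamma also induces strongly, were not called, at 0.44 (adjusted p = 0.37) and 0.96 (adjusted p = 0.086). Irf9, which carries the interferon signal to the ISRE, went from 26.8, 28.9 and 19.3 CPM to 80.3, 83.1 and 74.8 CPM (1.67 ± 0.11, adjusted p = 2.9e-10). Bst2, tetherin, which holds budding virions at the membrane, was 4.33-fold higher (2.11 ± 0.12, adjusted p = 1.1e-11), and Oas3 was 17.9-fold higher (4.17 ± 0.14, adjusted p = 5.1e-15). Without cytokine library 1 and medium library 3, 34 members rose, with a median of 2.41. Counts of the interferon genes themselves were at the limit of detection. The Ifna genes and Ifnb1, 12 in all, had 1 count in the medium libraries together and 8 with the cytokines, at most 5 in any library, and none could be tested. Ifnk, another type I interferon, had 1 count in a medium library and 3, 1 and 3 counts in the cytokine libraries.

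Promoter letters of the interferon-stimulated genes were compared with those of all genes, because the members rose together. The ISRE core was searched on both strands as GAAA, any 2 bases and GAAA again, in RefSeq windows of GRCm38.p6 from 250 bases before to 50 bases after each gene's start. It was present in 19 of the 29 listed genes with a window (65.5%), in 3.21% of the 11293 windows of tested genes and in 3.44% of all 32851 windows. List shares count genes with the letters in any window, and the other shares count windows, here and for the elements below. Each list was written from genes of known function. A higher share of its element can follow from that choice and does not test the changes seen here. Gbp2 and Gbp5, which were not called, were among the 19. Ifit2 and Isg20, which rose, had a window without it. Some matches overlap one another. Shown here are the 250 bases before the start of Isg15, Ifit1 and Rsad2, on the strand of the gene and with the ISRE letters in capitals. These genes were picked for display after their values were seen. Isg15 (chr4:156200819-156201068, minus strand) has 3 overlapping matches, the first starting 78 bases before the start. Ifit1 (chr19:34640639-34640888, plus strand) has 2, starting 104 and 85 bases before it, and Rsad2 (chr12:26456453-26456702, minus strand) has 1, starting 120 bases before it.
Isg15: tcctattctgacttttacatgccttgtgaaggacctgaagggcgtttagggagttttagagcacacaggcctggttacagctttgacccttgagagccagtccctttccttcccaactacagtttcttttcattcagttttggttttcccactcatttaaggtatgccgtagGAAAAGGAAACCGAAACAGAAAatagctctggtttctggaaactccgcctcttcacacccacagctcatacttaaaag
Ifit1: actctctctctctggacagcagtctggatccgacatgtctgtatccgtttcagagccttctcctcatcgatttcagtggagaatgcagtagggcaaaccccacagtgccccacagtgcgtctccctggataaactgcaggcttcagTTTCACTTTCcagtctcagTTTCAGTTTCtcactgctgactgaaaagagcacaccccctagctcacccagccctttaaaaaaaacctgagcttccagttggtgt
Rsad2: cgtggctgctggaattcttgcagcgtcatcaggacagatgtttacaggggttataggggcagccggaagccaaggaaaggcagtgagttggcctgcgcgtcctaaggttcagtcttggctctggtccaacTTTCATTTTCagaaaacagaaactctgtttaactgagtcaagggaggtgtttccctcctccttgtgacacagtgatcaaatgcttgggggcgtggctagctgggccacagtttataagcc
Isg15, a ubiquitin-like modifier, was at 2.04, 3.17 and 3.11 CPM in medium and 75.0, 54.2 and 54.9 CPM with the cytokines (4.46 ± 0.22, adjusted p = 1.2e-11). Ifit1, which binds viral RNA lacking a methylated cap, was at 1.70, 1.29 and 1.43 CPM and 107, 65.1 and 66.5 CPM (5.74 ± 0.33, adjusted p = 1.6e-09). A match of letters describes the sequence and does not show that a factor was bound.

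On the IL-10 side, the ligand-binding receptor chain was not called, while known targets of STAT3 rose. Il10ra, the ligand-binding chain, was at 160.3, 153 and 113 CPM in medium and 123, 129 and 109.5 CPM with the cytokines, with overlapping libraries (-0.24 ± 0.11, adjusted p = 0.099). It was called lower without medium library 3 (-0.38, adjusted p = 0.0045), without that library and cytokine library 1 (-0.40, adjusted p = 0.011), and with the replicate number as a block in the fit of only these 6 libraries (-0.25, adjusted p = 0.029). Upper-quartile scaling also called Il10ra lower (-0.31, adjusted p = 0.033). So did limma on log2(TPM + 1) (-0.37, adjusted p = 0.014) and on log2(TPM + 0.1) (-0.37, adjusted p = 0.015). Il10 itself was barely detected, at 0.170, 0.257 and 0 CPM in medium and 0.0970, 0.507 and 0.329 CPM with the cytokines. Of the 18 receptor and JAK-STAT components 7 rose and 4 fell (median log2 fold change -0.05), against the 18.3% and 16.9% of all tested genes, and 6 fell without cytokine library 1 and medium library 3. Stat3 was at 134, 118 and 104 CPM and 205, 209 and 199.6 CPM, with no overlap, a 1.72-fold rise (0.79 ± 0.10, adjusted p = 1.3e-06). Jak3, a kinase of the common gamma chain receptors, rose 2.62-fold (1.39 ± 0.13, adjusted p = 3.4e-08). Tyk2, Jak2, Stat4 and Stat5a were the members that fell.

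SOCS proteins, which shut off cytokine receptors, split by member. Socs3 (chr11:117966079-117970336, GRCm38.p6), the inhibitor that IL-10 is known to induce through STAT3, was at 108, 108 and 74.0 CPM in medium and 385, 408 and 356 CPM with the cytokines (1.99 ± 0.15, adjusted p = 2.7e-09), with the groups well apart. Socs6 was at 56.1, 67.3 and 61.2 CPM and 23.3, 28.6 and 22.5 CPM, a fall of 2.48-fold (-1.31 ± 0.11, adjusted p = 7.7e-09). Socs2, which GM-CSF and growth hormone signals induce, fell 2.06-fold (-1.04 ± 0.17, adjusted p = 0.00011). Socs1 also rose, so that 2 of the 8 members rose, 2 fell and 4 were not called.

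Of 29 known IL-10 and STAT3 target genes, 20 rose and 4 fell, with a median log2 fold change of 0.96. Il1rn, the antagonist of the IL-1 receptor, was at 772, 739 and 765 CPM in medium and 2717, 3139.6 and 2688 CPM with the cytokines (1.91 ± 0.13, adjusted p = 3.7e-10). Zfp36, whose product tristetraprolin destabilises cytokine mRNAs, was at 64.4, 56.8 and 43.4 CPM and 195, 199.9 and 169 CPM (1.78 ± 0.14, adjusted p = 2.7e-09). Il4ra, through which IL-4 and IL-13 act, was at 285, 281 and 233 CPM and 515, 551 and 508 CPM (0.98 ± 0.11, adjusted p = 3.0e-07). In all 3 the groups were separate. Junb rose 2.55-fold (1.35 ± 0.10, adjusted p = 1.5e-09) and Ddit4, an inhibitor of mTORC1, 5.05-fold (2.34 ± 0.26, adjusted p = 3.2e-07). Bcl3, a nuclear IkB protein, rose from 2.97, 4.29 and 3.03 CPM to 8.05, 8.03 and 8.14 CPM (1.23 ± 0.33, adjusted p = 0.0064), and lost its call without cytokine library 1 and medium library 3 (adjusted p = 0.0545). Nfil3, a repressor of Il12b, rose from 17.0, 40.6 and 14.6 CPM to 50.5, 80.7 and 65.5 CPM (1.45 ± 0.33, adjusted p = 0.0040), but was not called when only these 6 libraries were fitted (adjusted p = 0.053). The 4 that fell were Tnip3, Etv3, Etv6 and Cd163. Tnip3, an inhibitor of NF-kB signalling, went from 188, 169.6 and 139.9 CPM to 50.1, 47.4 and 31.0 CPM (-1.96 ± 0.15, adjusted p = 3.3e-09).

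The sequence that STAT dimers bind, the GAS element, was searched as TTCNNNGAA, N being any base, which reads the same on both strands. Of 24 IL-10 and STAT3 target genes with a promoter window 8 held it (33.3%), against 7.06% of the windows of tested genes and 8.30% of all windows. Etv6, which fell, was among the 8. The interferon-stimulated list held it in a similar share, 9 of 29 genes with a window (31.0%). Fcgr1, the high-affinity IgG receptor, is shown as an example of a target that rose, as the 250 bases before its start (chr3:96293970-96294219, minus strand, GRCm38.p6) with the GAS letters in capitals, 109 bases before the start.
Fcgr1: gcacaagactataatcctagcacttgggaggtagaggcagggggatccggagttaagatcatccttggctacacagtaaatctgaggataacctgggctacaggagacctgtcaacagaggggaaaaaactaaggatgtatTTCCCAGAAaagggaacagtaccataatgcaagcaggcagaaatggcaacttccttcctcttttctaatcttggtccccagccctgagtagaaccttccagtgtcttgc
Fcgr1 was at 43.8, 31.8 and 50.2 CPM in medium and 102, 96.8 and 85 CPM with the cytokines (1.17 ± 0.19, adjusted p = 0.00012). All cytokine libraries lay above all medium libraries. Of 7 tested Fc receptors, Fcgr1 included, 6 rose and none fell (median 0.57). Fcgr4, an activating receptor for IgG2, was at 2.72, 1.20 and 3.45 CPM and 67.3, 87.3 and 62.3 CPM (4.87 ± 0.30, adjusted p = 1.7e-09), and Fcgr2b, the inhibitory receptor, at 423, 411 and 404 CPM and 699.9, 769.5 and 499 CPM (0.67 ± 0.13, adjusted p = 0.00030).

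Among TGF-beta ligands, receptors and SMADs, 5 of 19 tested members rose and 6 fell, with a median log2 fold change of -0.26 (4 fell without cytokine library 1 and medium library 3). Tgfbr1, the kinase chain of the receptor, was at 30.3, 27.2 and 26.7 CPM in medium and 49.3, 45.2 and 45 CPM with the cytokines (0.73 ± 0.14, adjusted p = 0.00028). Furin, the protease that matures the TGF-beta precursor, was at 104, 104 and 80.8 CPM and 387, 485 and 351 CPM (2.08 ± 0.14, adjusted p = 3.6e-10). Against these, the accessory receptor Tgfbr3 (betaglycan) fell from 16.2, 15.4 and 15.6 CPM to 4.85, 4.31 and 2.63 CPM (-2.01 ± 0.24, adjusted p = 1.3e-06). Acvrl1, the ALK1 receptor, fell 2.25-fold (-1.17 ± 0.13, adjusted p = 5.9e-07). Lrrc32, known as GARP, which tethers latent TGF-beta to the cell surface, was at 41.9, 37.9 and 13 CPM and 3.49, 1.61 and 0.411 CPM (-4.12 ± 0.49, adjusted p = 1.4e-05), and its lowest medium library was number 3. Eng, Smad2 and Smad4 also fell, while Tgfbr2, Itgav and Tgfb3 rose.

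Feedback and target genes of TGF-beta were higher in 14 of 29 tested members and lower in 4, with a median of 0.74. The number lower was 2 without cytokine library 2, cytokine library 3 or medium library 1. Smad7, the inhibitory SMAD, was at 2.63, 1.72 and 1.68 CPM in medium and 3.98, 6.34 and 5.18 CPM with the cytokines (1.36 ± 0.27, adjusted p = 0.00046). Pmepa1, which binds receptor SMADs and limits the signal, was at 3.74, 3.77 and 2.36 CPM and 18.8, 19.3 and 20.2 CPM (2.56 ± 0.20, adjusted p = 2.3e-09). Tgfbi (chr13:56609586-56639359, GRCm38.p6), a matrix protein named for its induction by TGF-beta, was at 647, 613 and 736 CPM and 2649, 2976 and 2600.4 CPM (2.04 ± 0.16, adjusted p = 2.5e-09). None of the libraries of these genes overlapped. Id1, an inhibitor of basic helix-loop-helix factors, rose 6.4-fold (2.68 ± 0.18, adjusted p = 1.9e-10) and Skil, a SMAD repressor, 1.58-fold (0.66 ± 0.12, adjusted p = 0.00014).

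Some genes that TGF-beta is known to raise went the other way or did not pass. Klf10, also called TIEG1, was at 75.4, 83.9 and 76.9 CPM in medium and 49.8, 53.8 and 42.3 CPM with the cytokines, a fall (-0.69 ± 0.11, adjusted p = 4.3e-05). Itgae, the CD103 integrin, was at 6.71, 3.94 and 1.6 CPM and 6.31, 2.96 and 8.06 CPM and the groups overlapped (adjusted p = 0.39). Aldh1a2, which makes retinoic acid in tolerogenic dendritic cells, was at 53.5, 58.0 and 13.6 CPM and 16.6, 0.169 and 0.576 CPM, again with overlap (-2.92 ± 0.89, adjusted p = 0.022). Its log2 fold change was -6.75 (adjusted p = 0.00014) without cytokine library 1 and -7.17 (3.1e-07) without that library and medium library 3. Within their groups Aldh1a2 was highest in cytokine library 1 and lowest in medium library 3. A larger fall without them was therefore built in, and its p tests nothing. The call was lost without medium library 1 (adjusted p = 0.060), medium library 2 (0.065), cytokine library 2 (0.067) or cytokine library 3 (0.0715). It was also lost in the fit of only these 6 libraries, without and with the replicate block (0.20 in each). Genes that microglia need TGF-beta to express rose in 8 of 11 tested members and fell in 2 (median 1.22), although only 5 rose without cytokine library 2 and 5 without medium library 1. P2ry13, a purinergic receptor, was at 9.94, 6.26 and 15 CPM and 62.1, 58.2 and 79.2 CPM (2.68 ± 0.24, adjusted p = 5.5e-08), and Mertk rose 3.31-fold. Cx3cr1 and Gpr34 were the 2 that fell.

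**Figure D2:**
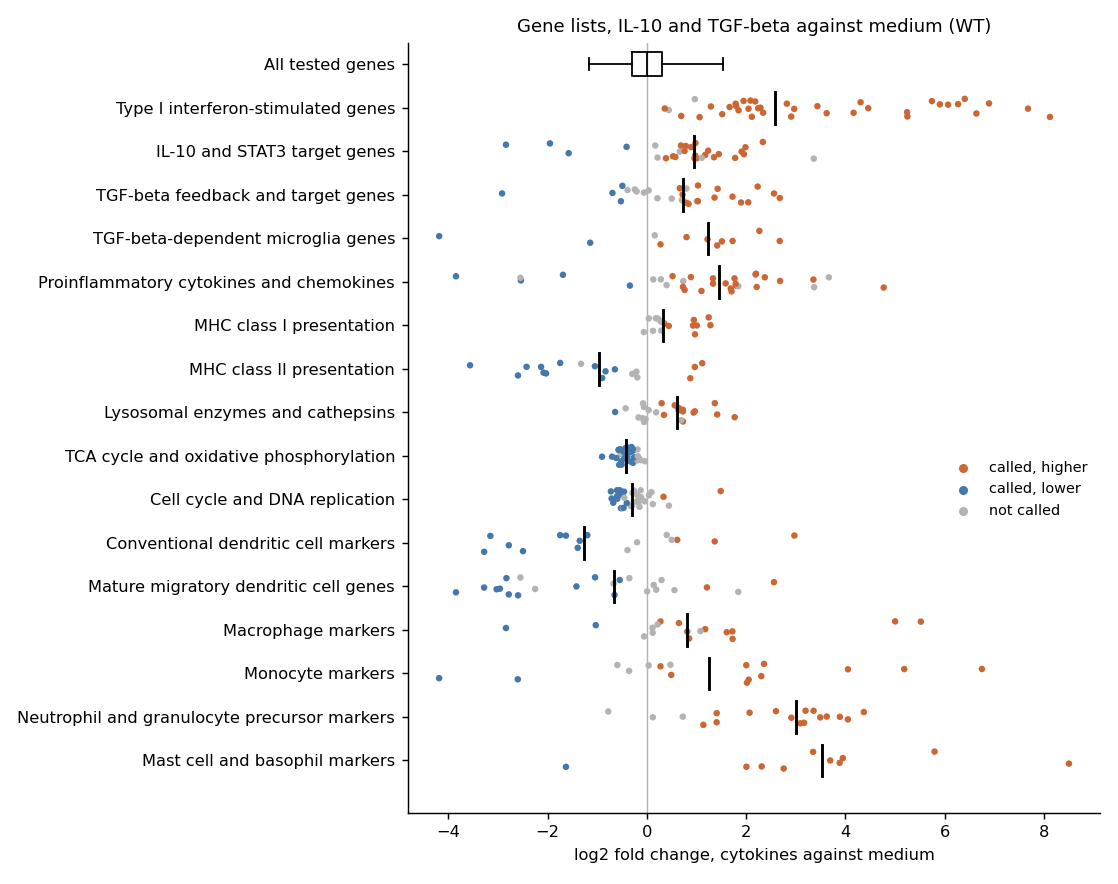
Log2 fold change of every tested member of 16 gene lists, cytokines against medium, with called members in orange (higher) or blue (lower), others in grey and a black bar at each list's median. The box over all tested genes spans the quartiles and its whiskers the 5th to 95th percentile; the interferon-stimulated list lies to its right with a median of 2.58 and the conventional dendritic cell markers to its left with a median of -1.28.

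The lectin receptors Asgr2, Mgl2 and Clec10a were among the 12 genes with the largest separated falls. Asgr2, a subunit of the asialoglycoprotein receptor, was at 176, 132 and 82.2 CPM in medium and 1.46, 0.169 and 0.658 CPM with the cytokines, a fall of 175-fold (-7.45 ± 0.42, adjusted p = 1.8e-08). Mgl2, a macrophage galactose lectin that marks a dendritic cell subset, was at 1930.5, 1888 and 1215 CPM and 61.1, 67.7 and 58.1 CPM (-4.75 ± 0.27, adjusted p = 1.0e-09). Clec10a, its close relative, was at 213, 254 and 152 CPM and 12.1, 9.90 and 10.9 CPM (-4.24 ± 0.19, adjusted p = 3.5e-12). The groups of these genes lay at least 10-fold apart even between the nearest libraries. Of 18 tested C-type lectin receptors 8 fell and 5 rose, with a median near 0 (0.0078). Clec4a3, an inhibitory lectin, was among the 8 (-1.74 ± 0.12, adjusted p = 5.2e-10), and only 3 rose without cytokine library 1, cytokine library 2, medium library 1 or medium library 2. Mgl2 and Clec10a are similar enough in sequence that some reads could be split between them.

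Further large falls were Ccl17, Tns1, Sema6d and Tmem176b. Ccl17, a chemokine that attracts T cells through CCR4, was at 1503, 1299 and 691 CPM in medium and 181, 23.6 and 38.6 CPM with the cytokines (-3.85 ± 0.64, adjusted p = 0.00044). Tmem176b, a membrane protein of immature dendritic cells, was at 48.4, 42.2 and 8.16 CPM and 3.10, 1.27 and 2.47 CPM (-3.86 ± 0.61, adjusted p = 0.00024). With the replicate number as a block in the fit of only these 6 libraries, neither Ccl17 (adjusted p = 0.069) nor Tmem176b (0.057) passed. Tns1, tensin, which links integrins to actin, was at 38.8, 41.9 and 51.6 CPM and 2.81, 0.761 and 1.64 CPM (-4.68 ± 0.37, adjusted p = 1.8e-08), and Sema6d, a transmembrane semaphorin, at 65.4, 46.9 and 21.5 CPM and 3.30, 2.88 and 2.22 CPM (-4.00 ± 0.37, adjusted p = 3.1e-07). Kcp, Klk1b9, Nedd4 and Ear11 completed the 12, with log2 fold changes of -4.03, -3.86, -3.76 and -4.40. Ear11 and Klk1b9 belong to multigene families, so their reads may be shared with relatives.

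**Figure D3:**
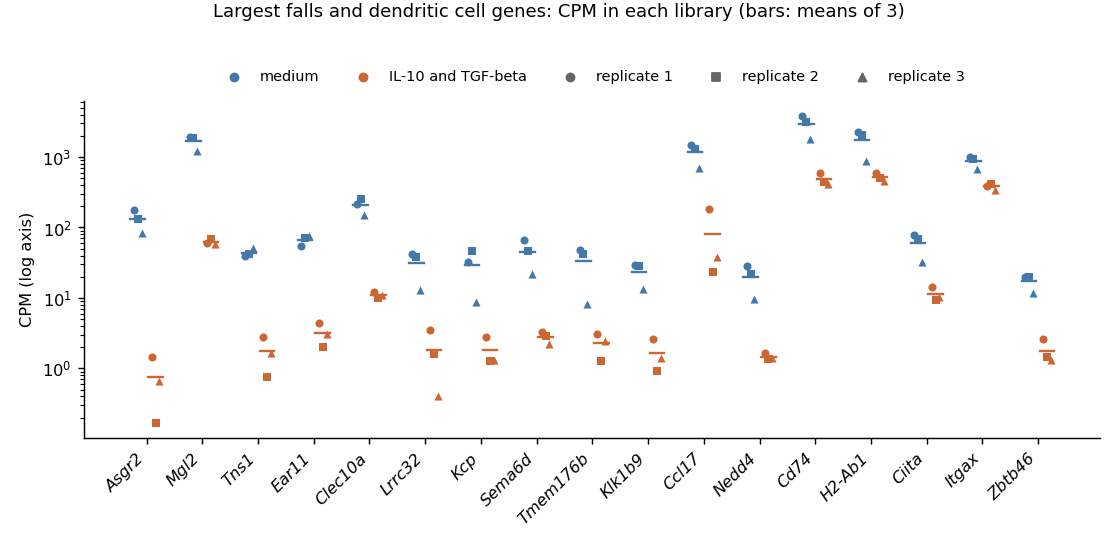
CPM on a log axis in each medium and cytokine library for the 12 genes that fell most and for Cd74, H2-Ab1, Ciita, Itgax and Zbtb46, with bars at the group means and symbols for the replicate number. Cytokine libraries lie below medium libraries in every gene drawn; medium library 3 is the lowest of its group for Asgr2 (176, 132 and 82.2 CPM) and Ccl17 (1503, 1299 and 691 CPM).

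Antigen presentation moved in opposite directions for class II and class I. Of 18 class II genes 11 fell and 3 rose, with a median log2 fold change of -0.98. Ciita (chr16:10480014-10531064, GRCm38.p6), the master activator of class II genes, was at 78.8, 69.0 and 32.0 CPM in medium and 14.2, 9.22 and 10.2 CPM with the cytokines (-2.43 ± 0.29, adjusted p = 6.4e-06). H2-Ab1 (chr17:34263227-34269418), the beta chain of I-A, was at 2273, 2080.5 and 888 CPM and 594, 507 and 458 CPM (-1.75 ± 0.26, adjusted p = 9.6e-05). Cd74, the invariant chain that escorts class II molecules, was at 3808, 3178 and 1820.2 CPM and 597, 439.7 and 416 CPM (-2.60 ± 0.25, adjusted p = 5.9e-07). In each the groups were separate, and medium library 3 was the lowest of its group. H2-DMa, which loads peptide, fell 1.87-fold (-0.90 ± 0.11, adjusted p = 7.1e-07). The 3 that rose were Ctss and Lgmn, lysosomal proteases that process the invariant chain and antigens, and March1, a ligase that removes class II from the surface. Lgmn was at 83.6, 72.0 and 82.6 CPM and 182, 191 and 143 CPM (1.11 ± 0.13, adjusted p = 8.0e-07). Without cytokine library 1 and medium library 3, 10 class II genes fell and 3 rose (median -0.998).

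Class II promoters carry a Y box, read by the factor NF-Y, which was searched as CTGATTGG on both strands. It was in 4 of 13 listed class II genes with a window (30.8%), in 5.65% of the windows of tested genes and in 4.10% of all windows. H2-Aa, the alpha chain of I-A, is shown because it held the match and fell. It was picked after its values were seen, and the 250 bases before its start (chr17:34287824-34288073, minus strand, GRCm38.p6) have the Y box letters in capitals, 51 bases before the start.
H2-Aa: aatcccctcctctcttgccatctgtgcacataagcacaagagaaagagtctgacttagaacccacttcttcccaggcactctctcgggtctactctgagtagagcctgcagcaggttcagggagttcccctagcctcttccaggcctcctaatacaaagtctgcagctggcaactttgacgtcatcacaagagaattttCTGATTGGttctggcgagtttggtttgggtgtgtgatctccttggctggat
H2-Aa was at 1544, 1424 and 541 CPM in medium and 344, 271 and 242 CPM with the cytokines (-2.03 ± 0.31, adjusted p = 0.00012), and all cytokine libraries were below all medium libraries.

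In the class I list 8 of 16 members rose and none fell (median 0.33). B2m, the light chain of every class I molecule, was at 1712, 1671 and 1463 CPM in medium and 3929, 4639 and 3187 CPM with the cytokines (1.28 ± 0.12, adjusted p = 3.7e-08). H2-D1, a class I heavy chain, was at 1022, 1036 and 871 CPM and 2318, 2656 and 1970.5 CPM (1.25 ± 0.13, adjusted p = 1.1e-07). Tapbp, tapasin, which loads peptide on class I, rose 1.90-fold (0.93 ± 0.10, adjusted p = 2.2e-07). No library of the groups overlapped for these genes. H2-K1, Tap1, Nlrc5, Psme1 and Erap1 were the other members that rose. Class I genes are also known interferon targets. H2-D1 and H2-K1 have near-identical relatives, so their counts are uncertain.

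Costimulatory genes showed no common direction: of 16 tested ligands 4 rose and 3 fell (median 0.19). Cd86 was at 71.2, 50.3 and 13.7 CPM in medium and 56.2, 55.6 and 42.2 CPM with the cytokines, Cd80 at 16.2, 10.9 and 6.48 CPM and 11.2, 9.05 and 6.00 CPM, and both sets overlapped (adjusted p = 0.78 and 0.34). Cd40, which receives the CD40L signal from T cells, was at 5.6, 5.06 and 1.01 CPM and 14.9, 1.18 and 1.73 CPM (adjusted p = 0.62), and cytokine library 1 alone was high. Without cytokine library 1 and medium library 3, Cd40 was lower (log2 fold change -1.86, adjusted p = 6.8e-06), Cd80 was lower (-0.85, adjusted p = 0.017), 6 ligands fell and the median was -0.33. These libraries were picked by genes of mature dendritic cells, a list that holds Cd40, so these values are a description and not a test. The median was also below 0 without cytokine library 1 (-0.19), without medium library 3 (-0.14) and with limma on log2(TPM + 0.1) (-0.04). Cd274, which encodes PD-L1, was at 145, 149 and 99.3 CPM and 199.6, 179.8 and 118 CPM (0.34 ± 0.20, adjusted p = 0.20), and passed without cytokine library 3 (0.53, adjusted p = 0.032) and with the replicate block in the fit of only these 6 libraries (0.31, adjusted p = 0.0053). Tnfsf14 (LIGHT) rose from 5.52, 4.37 and 6.56 CPM to 35.7, 34.2 and 38.6 CPM (2.72 ± 0.22, adjusted p = 3.3e-09). Cd276 (B7-H3) rose from 2.04, 1.37 and 1.43 CPM to 13.8, 16.2 and 18.7 CPM (3.32 ± 0.30, adjusted p = 1.7e-08). Tnfsf4 (OX40L) was at 10.4, 9.52 and 2.86 CPM in medium and at most 1.26 CPM with the cytokines (-4.16 ± 0.63, adjusted p = 6.3e-05; -7.13 without cytokine library 1 and -7.52 without it and medium library 3).

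Both cytokines are known to restrain inflammatory genes. Here 20 of 32 proinflammatory cytokine and chemokine genes rose and 4 fell, with a median log2 fold change of 1.46. Il1b was at 451, 421 and 259 CPM in medium and 1957, 2269.7 and 1643 CPM with the cytokines (2.38 ± 0.17, adjusted p = 1.5e-09). Osm, oncostatin M, a cytokine of the IL-6 family, was at 57.7, 55 and 49.7 CPM and 533, 615 and 514 CPM (3.35 ± 0.11, adjusted p = 5.1e-15). Ccl4, a chemokine that attracts monocytes and T cells, was at 106, 78.5 and 76.4 CPM and 280.0, 321 and 240.4 CPM (1.69 ± 0.13, adjusted p = 1.3e-09). All 3 had separate libraries. Il6 was at 7.81, 8.06 and 5.97 CPM and 27.8, 24.9 and 18.7 CPM, a 3.26-fold rise (1.71 ± 0.19, adjusted p = 1.0e-06). Tnf rose least of those named, from 46.3, 44.5 and 36.8 CPM to 62.3, 63.1 and 57.2 CPM (0.52 ± 0.16, adjusted p = 0.014), and did not pass without medium library 3 (0.42, adjusted p = 0.066) or without that library and cytokine library 1 (0.41, 0.12). Nor did Tnf pass with limma on log2(TPM + 1) (0.37, adjusted p = 0.073) or log2(TPM + 0.1) (0.38, 0.076). Il23a was near the limit of detection, at 0.170, 0 and 0.0841 CPM and 0.582, 0.423 and 0.329 CPM (adjusted p = 0.033), and its call was lost without cytokine library 1 (0.094), cytokine library 2 (0.063), medium library 2 (0.12) or medium library 3 (0.074), and without cytokine library 1 and medium library 3 together (0.15). Il12b was not called (3.67 ± 1.44, adjusted p = 0.066); without cytokine library 1 its log2 fold change was -1.69 (adjusted p = 0.10). It passed with the replicate block in the fit of all 6 groups (3.37, adjusted p = 0.010), without cytokine library 2 (4.27, 0.019) and without cytokine library 3 (4.27, 0.017), and was called lower without cytokine library 1 and medium library 3 (-2.12, 0.020). Il12b also served to pick these libraries, so that last call is no test. The 4 that fell were Ccl17, Lta, Il15 and Mif. Without cytokine library 1 and medium library 3, 13 rose and 7 fell (median 1.05). With the replicate block in the fit of only these 6 libraries, 2 fell.

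Receptors for chemoattractants rose in 11 of 16 tested members and fell in 1, Cx3cr1 (median 0.83); 3 fell without medium library 3. Ccrl2, which binds chemerin, was at 16, 10.6 and 9.76 CPM in medium and 116, 116 and 93.2 CPM with the cytokines (3.16 ± 0.19, adjusted p = 3.5e-10). Fpr1, a formyl peptide receptor, was at 89.7, 83.4 and 113 CPM and 257, 262 and 255 CPM (1.43 ± 0.14, adjusted p = 5.5e-08), and Ccr1 at 632, 595 and 614 CPM and 1158, 1296 and 1196 CPM (0.99 ± 0.12, adjusted p = 2.0e-06). The groups did not overlap. Ccr7, by contrast, was not called (-2.25 ± 1.05, adjusted p = 0.12), although it was lower without cytokine library 1 (-5.01, adjusted p = 0.0036) and without medium library 3 (-2.78, adjusted p = 0.044). Ccl22 was not called either (-2.55 ± 1.12, adjusted p = 0.099), and was lower without cytokine library 1 (-6.57, adjusted p = 2.2e-05). Both Ccr7 (-5.54, adjusted p = 3.7e-05) and Ccl22 (-7.00, adjusted p = 6.2e-09) were lower without cytokine library 1 and medium library 3. Because Ccr7 and Ccl22 served to pick these libraries, the values without them are a description and not a test. With the replicate number as a block in the fit of all 6 groups, both Ccr7 (-2.93, adjusted p = 0.0058) and Ccl22 (-4.29, 0.0037) were called lower. Limma on log2(TPM + 1) also called Ccr7 (-2.98, adjusted p = 0.048) and Ccl22 (-4.45, 0.0077) lower. On log2(TPM + 0.1) limma gave -3.21 (adjusted p = 0.0475) for Ccr7 and -4.58 (0.0085) for Ccl22.

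Of 24 tested Toll-like receptors and adaptors 8 rose and 4 fell (median 0.15). Cd14, the LPS co-receptor, was at 353, 350.1 and 221 CPM in medium and 933, 1080.0 and 804 CPM with the cytokines (1.61 ± 0.15, adjusted p = 4.8e-08), while Tlr4 itself was not called, at 178, 166 and 165 CPM and 193, 217 and 182 CPM (adjusted p = 0.13). Tlr2 rose 1.75-fold (0.80 ± 0.09, adjusted p = 4.6e-07). Ticam2, the TRAM adaptor through which TLR4 reaches interferon genes, fell from 38.7, 40.6 and 38.0 CPM to 17.9, 12.3 and 15.1 CPM (-1.37 ± 0.12, adjusted p = 1.7e-08). In the NF-kB list 8 of 23 rose and 6 fell (median 0.12). Nfkbiz, a nuclear IkB protein, rose 3.73-fold (1.90 ± 0.16, adjusted p = 5.3e-09) and Nfkbid, a related protein, 3.66-fold (1.87 ± 0.17, adjusted p = 2.0e-08), whereas Relb, Nfkb1 and Rel fell. The count of NF-kB genes that rose was 3 without cytokine library 2, 5 without cytokine library 3, 4 without medium library 3, 4 with upper-quartile scaling and 3 on the TPM scale, and 10 fell with the replicate block in the fit of only these 6 libraries. With cytokine library 1 and medium library 3 left out, 4 rose and 7 fell (median -0.06).

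Of 25 AP-1, EGR and related genes 11 rose and 2 fell (median 0.55). Fos was at 27.3, 13.6 and 25.6 CPM in medium and 427, 486 and 454 CPM with the cytokines (4.36 ± 0.22, adjusted p = 9.5e-11). Batf3, a factor that cross-presenting dendritic cells need, fell from 18.2, 18.9 and 15.5 CPM to 3.98, 0.846 and 1.23 CPM (-3.16 ± 0.30, adjusted p = 7.3e-08). Among 10 tested MAP kinase phosphatases 6 rose and 2 fell (median 1.18). Dusp1, which switches off p38 and JNK, was at 72.0, 59.8 and 60.6 CPM and 358, 448 and 309.7 CPM (2.54 ± 0.16, adjusted p = 1.4e-10), Dusp16 rose 2.53-fold and Dusp10 2.67-fold. Kruppel-like factors rose in 7 of 11 (median 0.57), and in 4 without cytokine library 2 or on the TPM scale. Klf4 was at 18.7, 20.8 and 19.0 CPM and 35.4, 34.3 and 33.5 CPM (0.82 ± 0.18, adjusted p = 0.00092).

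Molecules linked to tolerance were mixed: 13 of 26 tested members rose and 5 fell (median 0.40). Lgals9, galectin-9, a ligand of TIM-3, was at 125, 128 and 139 CPM in medium and 369, 347 and 359 CPM with the cytokines (1.46 ± 0.11, adjusted p = 2.0e-09). Havcr2, TIM-3 itself, was at 7.64, 5.57 and 3.36 CPM and 25.5, 24.7 and 8.96 CPM (1.83 ± 0.42, adjusted p = 0.0031). Mertk, a receptor for apoptotic cells, was at 26.6, 28.3 and 22.9 CPM and 86.9, 96.0 and 74.4 CPM (1.73 ± 0.15, adjusted p = 1.8e-08). Each of these had separate libraries, with cytokine library 3 closest to medium for Havcr2. The 5 that fell were Lgals1, Lgals3, Pdcd1lg2, Ebi3 and Aldh1a2, and 3 fell without cytokine library 3, medium library 1 or medium library 2, or in the fit of only these 6 libraries, and 9 on the TPM scale. Hmox1, which degrades haem, rose 1.86-fold (0.89 ± 0.14, adjusted p = 2.3e-05). Of 12 tested genes of arginine, tryptophan and itaconate metabolism 6 rose and 3 fell (median 0.62), or 1 fell without medium library 1 or with the replicate block in the fit of only these 6 libraries. Arg1 was at 3115, 4082 and 2909 CPM and 5626, 6642 and 4671 CPM (0.75 ± 0.14, adjusted p = 0.00017), and the other arginase, Arg2, rose 4.18-fold (2.06 ± 0.18, adjusted p = 1.9e-08). Nos2, the inducible nitric oxide synthase, which competes with arginases for arginine, was at 32.4, 32.7 and 21.1 CPM and 231, 223 and 135 CPM (2.77 ± 0.23, adjusted p = 9.3e-08). Kmo, of the kynurenine pathway, fell from 57.1, 47.1 and 25.8 CPM to 10.8, 11.6 and 15 CPM (-1.80 ± 0.26, adjusted p = 3.1e-05; adjusted p = 0.065 with the replicate block in the fit of only these 6 libraries).

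Mitochondrial energy genes fell by small amounts in most members. Of 33 TCA cycle and respiratory chain genes 26 fell and none rose (median -0.42). Fh1, fumarase, was at 107, 95.3 and 107 CPM in medium and 56.9, 48.3 and 60.0 CPM with the cytokines (-0.90 ± 0.11, adjusted p = 9.2e-07). Atp5o, an ATP synthase subunit, was at 140.3, 144 and 167 CPM and 95.2, 87.3 and 95 CPM (-0.70 ± 0.09, adjusted p = 4.2e-06), and Sdha, of succinate dehydrogenase, at 346, 316 and 384 CPM and 237, 236 and 259 CPM (-0.51 ± 0.08, adjusted p = 4.7e-05). The groups did not overlap for these. Without cytokine library 1 and medium library 3, 19 fell and none rose (median -0.36). In glycolysis 8 of 22 fell and 3 rose (median -0.22), or 13 fell and 1 rose on the TPM scale. Gpi1, glucose-6-phosphate isomerase, fell 2.15-fold (-1.10 ± 0.13, adjusted p = 1.3e-06) and Hk1 1.5-fold, while Pfkfb3, which activates phosphofructokinase, rose 2.82-fold (1.5 ± 0.17, adjusted p = 1.2e-06).

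Lipid genes changed by role. Of 15 tested genes of cholesterol efflux and LXR targets 9 rose and 2, Scd1 and Scd2, fell (median 0.54). Apoe, the lipid carrier, was at 8.83, 6.00 and 9.17 CPM in medium and 414, 410.4 and 280.1 CPM with the cytokines (5.52 ± 0.36, adjusted p = 2.5e-08). Abca1, the cholesterol exporter, was at 21.9, 22.1 and 17.2 CPM and 122, 127 and 82.2 CPM (2.43 ± 0.17, adjusted p = 1.0e-09), and Apoc2 rose 4.35-fold (2.12 ± 0.17, adjusted p = 3.1e-09). All were well separated. Cholesterol synthesis genes were largely not called, with 1 of 24 higher and 5 lower (median -0.02), or 3 lower without cytokine library 3 and 8 lower on log2(TPM + 1). None was higher and 4 were lower (median -0.18) without cytokine library 1 and medium library 3. Acat2, at the entry of the pathway, fell 1.61-fold (-0.69 ± 0.12, adjusted p = 0.00010) and Mvd 1.42-fold. In the PPAR and lipid storage list 7 of 19 rose and 8 fell (median 0.0029). Dgat2, which makes triglyceride, was at 13.3, 9.78 and 11.5 CPM and 226, 223 and 290.0 CPM (4.41 ± 0.22, adjusted p = 6.7e-11), Hilpda rose 3.32-fold and Angptl4, an inhibitor of lipoprotein lipase, 5.07-fold. The members that fell included Cd36, Fabp4, Fabp5, Fasn, Acly and Lpl.

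Lysosomal genes rose in 15 of 26 members, and 1, Tfeb, fell (median 0.60). Ctsd, cathepsin D, was at 2868, 2869.9 and 3794 CPM in medium and 7981, 8875 and 7742 CPM with the cytokines (1.37 ± 0.11, adjusted p = 2.5e-09). Ctsl, cathepsin L, was at 271, 297 and 294 CPM and 916, 1190.4 and 830.1 CPM (1.77 ± 0.22, adjusted p = 6.5e-06). No libraries overlapped. Scavenger and apoptotic cell receptors rose in 10 of 20 tested members and fell in 3, Cd36, Mrc1 and Cd163 (median 0.57), or 5 without cytokine library 1 and medium library 3. Scarb2, a lysosomal membrane receptor, rose 3.02-fold (1.59 ± 0.09, adjusted p = 2.2e-11), and Cd300lf, a receptor for phosphatidylserine, 2.29-fold (1.20 ± 0.08, adjusted p = 1.8e-10). In the matrix list 8 of 23 rose and 2 fell (median 0.31), or 4 fell without medium library 3 or with the replicate block in the fit of only these 6 libraries. The crosslinking enzyme Tgm2 was among those that rose (2.43 ± 0.15, adjusted p = 9.5e-11). Spp1, osteopontin, was at 1348, 1275 and 983 CPM and 19706, 26182 and 18343 CPM (4.15 ± 0.28, adjusted p = 1.0e-08), and Vcan, versican, rose 4.94-fold (2.30 ± 0.17, adjusted p = 3.3e-09). Adhesion genes rose in 8 of 20 and fell in 3 (median 0.36), with Pecam1 from 17.5, 17.8 and 12.1 CPM to 119, 135 and 128 CPM (3.01 ± 0.19, adjusted p = 3.3e-10) and Itgax, the sort marker, down from 1014, 937 and 680.4 CPM to 393, 415 and 336 CPM (-1.20 ± 0.13, adjusted p = 2.6e-07).

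Cell cycle genes fell in 13 of 34 members and rose in 2, Myb and Ccnd3 (median -0.29). Mki67, a proliferation marker, was at 119.7, 126 and 155 CPM in medium and 83.1, 65.1 and 95.9 CPM with the cytokines (-0.71 ± 0.14, adjusted p = 0.00054). Cdk4 was at 178, 176 and 203 CPM and 126, 127 and 140.2 CPM (-0.50 ± 0.09, adjusted p = 0.00022) and Bub1, a mitotic checkpoint kinase, at 64.0, 53.4 and 71.2 CPM and 39.2, 33.2 and 41.6 CPM (-0.73 ± 0.15, adjusted p = 0.00088). The nearest libraries of these genes were less than 1.5-fold apart. The count that fell was 8 without cytokine library 2, 7 without cytokine library 1 and medium library 3, and 22 with the replicate block in the fit of only these 6 libraries. Of the growth arrest genes 4 of 15 rose and 2 fell (median 0.02). Btg2, an antiproliferative gene, rose 3.98-fold (1.99 ± 0.12, adjusted p = 6.1e-11), and Cdkn2b, the CDK4 inhibitor p15 that TGF-beta is known to raise in epithelial cells, fell 4.52-fold (-2.18 ± 0.24, adjusted p = 2.6e-07).

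Marker lists of other cell types moved beside these results. Of 18 markers of neutrophils and their precursors 15 rose and none fell (median 3.00). Their summed level was 1014 to 1642 CPM in medium and 6965 to 9894 CPM with the cytokines. Prtn3, proteinase 3 of early granule cells, was at 1.87, 1.37 and 1.35 CPM and 16.8, 15.8 and 19.4 CPM (3.49 ± 0.35, adjusted p = 1.5e-07), and Fcnb, ficolin B, at 6.11, 4.97 and 4.12 CPM and 42.9, 39.9 and 56.9 CPM (3.20 ± 0.22, adjusted p = 3.4e-10). Csf3r, the G-CSF receptor, rose 4.2-fold (2.07 ± 0.31, adjusted p = 7.5e-05). Of 14 mast cell and basophil markers 10 passed the count filter, some of them only through libraries where they were high, so the 9 that rose (4 with a filter of 5 CPM in 3 libraries) are a description only; Kit fell. Their summed level was low, 4.12 to 17.4 CPM in medium and 48.0 to 81.4 CPM with the cytokines. Cpa3, a mast cell carboxypeptidase, was at 0.679, 0.0858 and 0.336 CPM and 5.63, 2.96 and 8.96 CPM (log2 fold change 3.95), which is likewise a description only. In RNA from pooled cells, more or fewer cells of a type and more or less RNA per cell cannot be told apart.

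Macrophage and monocyte markers were also higher. Of 17 tested macrophage markers 10 rose and 2 fell (median 0.81), with a summed level of 2622 to 2759 CPM in medium and 4102 to 5050 CPM with the cytokines. Mrc1 and Cd163 were the 2 that fell. Emr1, which encodes F4/80, was at 139.8, 120.2 and 121 CPM and 438, 415 and 403 CPM (1.72 ± 0.12, adjusted p = 5.7e-10). Siglec1, a sialic acid receptor of macrophages that interferon also induces, was at 3.65, 4.46 and 7.82 CPM and 172, 203 and 137 CPM (5.0 ± 0.28, adjusted p = 8.3e-10). Of 16 monocyte markers 10 rose and 2 fell (median 1.25; 4 fell in the fit of only these 6 libraries, with or without the replicate block), with a summed level of 5875 to 6539 CPM and then 13180 to 16010 CPM. Ly6c2, which marks classical monocytes, was at 303, 304 and 331 CPM and 1233, 1434 and 1129 CPM (2.02 ± 0.11, adjusted p = 1.1e-11), and Plac8 at 2.21, 1.89 and 0.925 CPM and 57.2, 63.2 and 63.3 CPM (5.19 ± 0.24, adjusted p = 8.3e-12). Ly6c2, Plac8 and Ms4a6c showed no overlap between the groups. Cx3cr1 was among the monocyte markers that fell.

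Lists of conventional and of mature migratory dendritic cell genes held more members that fell than rose, while other dendritic cell lists did not all do so. Of 16 tested conventional dendritic cell markers 9 fell and 3 rose (median -1.28), the summed level being 3156 to 5216 CPM in medium and 2386 to 2603 CPM with the cytokines. H2-Ab1 and Itgax, both on this list and lower, made up most of the fall in the sum. Zbtb46 went from 19.7, 20.1 and 11.9 CPM to 2.62, 1.44 and 1.32 CPM (-3.28 ± 0.27, adjusted p = 4.3e-09). Flt3 and Cadm1 had too few counts to be tested. Mature migratory dendritic cell genes fell in 11 of 23 tested members and rose in 2 (median -0.67). When only these 6 libraries were fitted, 6 fell. Their summed level was 3690, 3434 and 1406 CPM in the medium libraries and 1657, 529.1 and 445.5 CPM in the cytokine libraries, so that cytokine library 1 lay above medium library 3. Without both, 16 members fell (median -1.86), a description only, since the libraries were picked by such genes. Cd200, a ligand that restrains myeloid cells, was 1 of the 2 that rose (2.56 ± 0.38, adjusted p = 2.1e-05). Langerhans-like markers rose in 4 of 9 tested members and fell in 1 (median 0.50). Without cytokine library 1 and medium library 3, 4 rose and 2 fell (median 0.05). Their summed level did not rise, at 1145, 1073 and 875 CPM in medium and 923.9, 935.1 and 894.6 CPM with the cytokines. Cdh1, E-cadherin, was at 169.7, 140.5 and 138 CPM and 349, 350.5 and 372 CPM (1.26 ± 0.16, adjusted p = 5.1e-06). Cd207, the defining lectin, had too few counts to be tested. Plasmacytoid markers rose in 1 of 7 tested members and fell in 3; their summed level was 120.8 to 157.0 CPM in medium and 307.7 to 373.9 CPM with the cytokines, the member that rose being Bst2, also an interferon-stimulated gene. Lymphocyte markers summed to 1.94 to 2.32 CPM in medium and 2.23 to 3.21 CPM with the cytokines, with Cd3e, Cd3g, Pax5 and Gzma at 0, and no member could be tested. Stromal markers summed to 6.17 to 8.58 CPM and erythroid markers to 5.33 to 10.7 CPM over the 6 libraries.

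**Figure D4:**
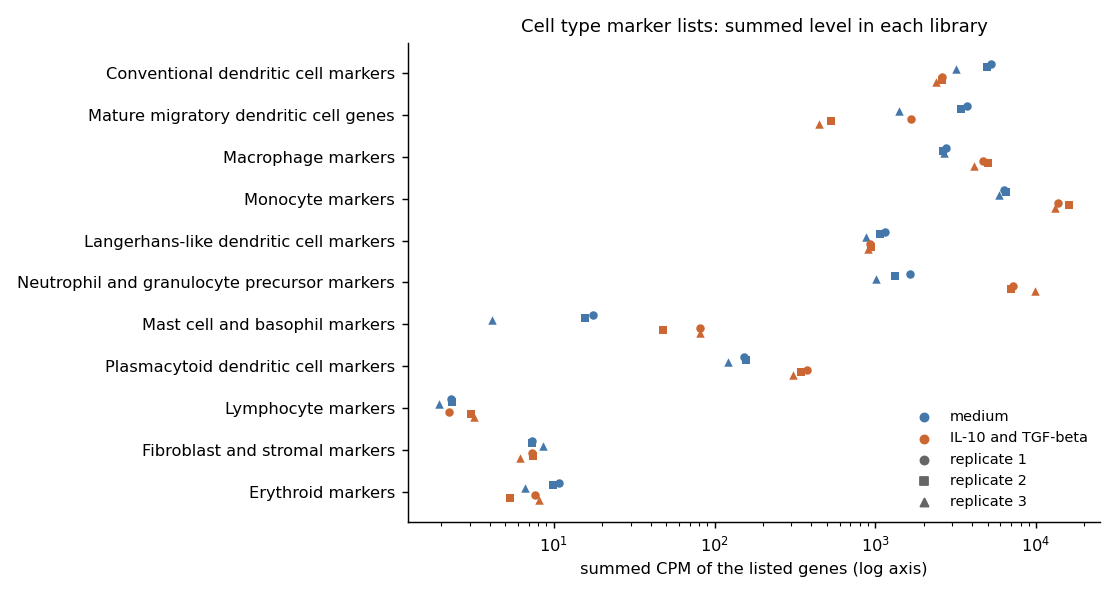
Summed CPM (log axis) of 11 cell type marker lists in each medium (blue) and cytokine (orange) library, with symbols for the replicate number. Granulocyte markers lie at 1014 to 1642 CPM in medium and 6965 to 9894 CPM with the cytokines, while conventional dendritic cell markers lie at 3156 to 5216 CPM and 2386 to 2603 CPM. Most of that last fall comes from H2-Ab1 and Itgax.

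The cytokine effect was then set beside its value in the presence of LPS, where the cytokines were given together with LPS and compared with LPS alone. This second comparison uses 6 other libraries. There 2273 genes were higher (19.1%) and 2510 lower (21.1%). The difference between the effects, tested as an interaction, was called for 2487 of 11876 genes (20.9%): 1055 were more positive with LPS (8.88%) and 1432 more negative (12.1%). Of these calls 42.4% were more positive, against 56.1% on the log2(TPM + 1) scale. All 38 interferon-stimulated genes had a more negative cytokine effect with LPS. In LPS-treated cells 1 of them was higher with the cytokines and 32 were lower (median -0.96), against 36 higher and none lower without LPS. Rsad2, at means of 1.25 ± 0.640 CPM in medium and 126 ± 86.5 CPM with the cytokines (± SD, n = 3 in each group), stood at 2697 ± 724 CPM with LPS and 379 ± 162 CPM with LPS and the cytokines (interaction -9.47 ± 0.79, adjusted p = 2.2e-06). Oasl1 stood at 959 ± 58.4 CPM with LPS and 195 ± 65.6 CPM with both (interaction -9.98 ± 0.59, adjusted p = 2.0e-08), and Ifit3 at 1049 ± 355 CPM and 211 ± 91.0 CPM (interaction -8.22 ± 0.74, adjusted p = 4.4e-06). Thus the level reached with the cytokines alone stayed below that of LPS alone in each of these 3 genes.

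Il6 and Tnf had opposite cytokine effects in the 2 settings. The call of the Tnf rise without LPS was lost without medium library 3 and on the TPM scale. Il6 rose 3.26-fold with the cytokines alone and went from 107 ± 15.9 CPM with LPS to 24.8 ± 5.67 CPM with LPS and the cytokines, a log2 fold change of -2.10 (adjusted p = 1.5e-08; interaction -3.81 ± 0.26, adjusted p = 2.1e-09). Tnf was at 86.4 ± 4.53 CPM with LPS and 29.0 ± 4.88 CPM with both, a log2 fold change of -1.57 (adjusted p = 2.1e-07; interaction -2.09 ± 0.22, adjusted p = 9.7e-07). In the proinflammatory list 23 of 32 members had a more negative cytokine effect with LPS and 1 a more positive one, and among the 29 IL-10 and STAT3 targets 14 had a more negative and none a more positive effect. Socs3 was at 601 ± 157 CPM with LPS and 713 ± 42.2 CPM with both, where the cytokine effect was not called (interaction -1.74 ± 0.21, adjusted p = 4.1e-06).

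For class II genes and TGF-beta targets the 2 effects were set side by side. Of 18 class II genes 3 had a called interaction, all more negative, against 12.1% of tested genes in that direction. H2-Ab1 was at 1705 ± 151 CPM with LPS and 502 ± 66.5 CPM with both (log2 fold change -1.76; interaction -0.02 ± 0.36, adjusted p = 0.99). Tgfbi was at 765 ± 197 CPM and 4714 ± 239 CPM (interaction 0.58 ± 0.21, adjusted p = 0.061) and Id1 at 3.81 ± 1.66 CPM and 21.0 ± 3.67 CPM (interaction -0.23 ± 0.28, adjusted p = 0.62). A p above the threshold does not show that these effects were equal. Of 29 tested TGF-beta targets 9 had a more negative and 3 a more positive effect. In the other direction, Il1rl1, the IL-33 receptor, fell from 20.4, 20.3 and 14.0 CPM to 2.13, 1.01 and 2.06 CPM with the cytokines alone, and was at 0.412 ± 0.121 CPM with LPS and 1.66 ± 0.567 CPM with both (interaction 5.38 ± 0.53, adjusted p = 1.6e-07).

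**Figure D5:**
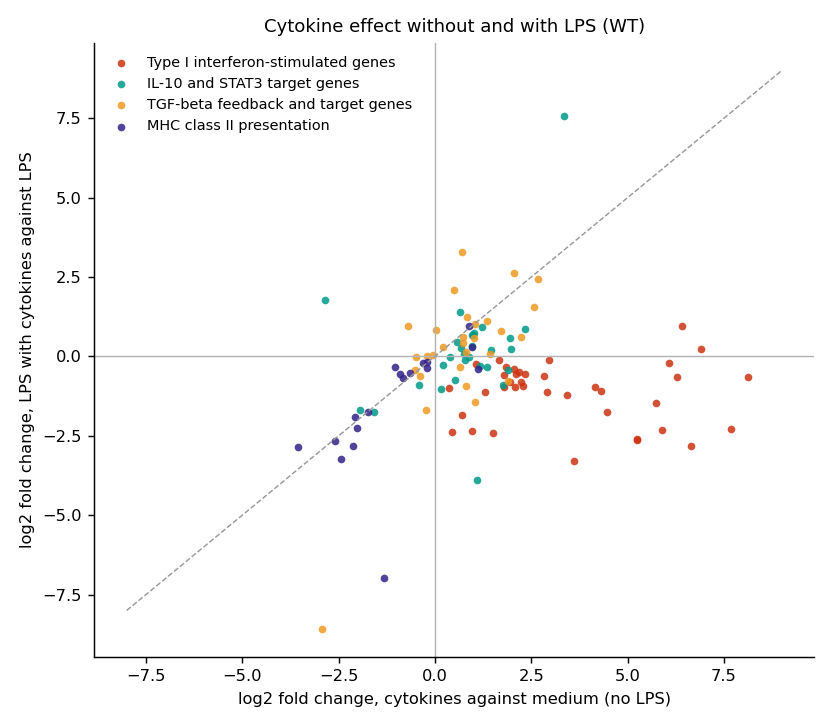
Log2 fold change with the cytokines without LPS (horizontal axis) and with LPS (vertical axis) for each tested member of 4 gene lists; the dashed line marks equal effects. Interferon-stimulated genes lie right of 0 and, in the main, below 0 (median 2.58 without LPS and -0.96 with it), while class II genes have medians of -0.98 and -0.62.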

How the data were processed

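RNA from sorted CD11c-high cells was sequenced in 18 libraries, of which 6 are compared here. Per the file headers, the authors deposited for each library a table of expected counts and TPM values per gene; RSEM, bcl2fastq and the mm10 build are named in the submitters' processing notes, without versions. The deposited expected counts, 9948715 to 11625458 per compared library, were rounded and tested with edgeR 4.0.16 in R 4.3.3 (TMM scaling, filterByExpr with a minimum count of 10, robust quasi-likelihood fit of 6 groups and 18 libraries, Benjamini-Hochberg adjustment). A gene is called at an adjusted p of 0.05. CPM were computed from the rounded counts. The deposited TPM values were used only in limma 3.58.1 alternatives on log2(TPM + 1) and log2(TPM + 0.1). DESeq2 1.42.0, other scalings and filters, fits of fewer groups, replicate blocks and leaving out libraries were further alternatives. The code was tested on simulated data.

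Genes named with values are the 12 largest separated rises and falls (mean log2 CPM of at least 2), the 3 called members with the smallest p of each list, 36 genes chosen for their known roles, and the 3 largest interactions in each direction. Isg15, H2-Aa, Gbp2, Gbp5 and single members given by symbol were added after their values were seen. The members and lists were chosen with earlier results of these data known. Libraries with the same replicate number deviated together (correlations of 0.307, 0.211 and 0.383 over 9469 genes, other pairs -0.299 to 0.081), so the numbers may pair the samples. This comes from the data, not from the labels. Deviations cancel within a group, so these correlations depend on one another. The main fit took no account of pairing. Promoter windows are from RefSeq (GRCm38.p6). Results of a few genes are not reported here.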

Additional observations from a re-analysis of the deposited data

Results flagged for a closer look

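The cytokine effect differed with and without LPS, tested as an interaction with edgeR, for 2487 genes. The largest differences among genes also called without LPS are given here as values. Il1rl1, the IL-33 receptor, differed by 5.38 on the log2 scale, Lifr, a receptor of the IL-6 family, by 3.39, and Angptl4 by 3.09. In the negative direction Oasl1 differed by -9.98, Rsad2 by -9.47 and Ifit3 by -8.22. Lifr was at 17.4, 17.3 and 16.5 CPM in medium and 11.9, 12.7 and 11.9 CPM with the cytokines (-0.49 ± 0.18, adjusted p = 0.038), a call that was lost when any single library of the 6 was left out (adjusted p from 0.0518 to 0.0941). It was at 2.05 ± 0.852 CPM with LPS and 15.3 ± 3.61 CPM with LPS and the cytokines (mean ± SD, n = 3). Angptl4 was at 6.79, 8.23 and 10.4 CPM in medium and 45.9, 39.0 and 44.4 CPM with the cytokines, and at 0.861 ± 0.445 CPM with LPS and 37.8 ± 1.66 CPM with both.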

How the results depend on the processing

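Of the 180 genes named by the rule, 167 were called, and 155 of these kept the call and the direction under every alternative in which they were tested (of the 180, 172 were tested at 5 CPM or more in 3 libraries, 176 with DESeq2 and 176 in the fits of only the 6 libraries), while 12 (Aldh1a2, Bcl3, Ccl17, Fbl, Hsd17b7, Il23a, Kmo, Lifr, Nfil3, Pdgfrb, Tmem176b and Tnf) lost the call under at least 1 and none reversed. The count of called genes, 4175, was 4158 with RLE scaling, 4314 (1817 higher) with upper-quartile scaling, 4147 with DESeq2, 4198 without a count filter, 3799 at 5 CPM or more in 3 libraries, 3944 in the fit of only the 6 libraries, 4159 without Rn45s, 4472 (1526 higher) on log2(TPM + 1) and 4312 (1501 higher, 34.8%) on log2(TPM + 0.1). It was 1548 when a 2-fold change was also required and 3292 to 4008 with 1 library left out. With the replicate block it was 4290 in the fit of all 6 groups and 4812 in the fit of only the 6 libraries, and 2457 for the interaction. Beside the calls given in the report, the block changed no call of a gene that the rule named and the text gives. Genes added after their values were seen were not checked singly. The interaction count of 2487 was 2465 with RLE scaling, 2555 with DESeq2, 2610 on log2(TPM + 1), 2494 in the fit of the 4 wild-type groups and 1982 to 2493 with 1 library left out. Without a count filter edgeR gave Ccl22 and Ccr7, whose libraries overlap between the groups, adjusted p of 2.7e-87 and 1.5e-65, so single genes are not read from that fit, where Cd40, Cd274 and Il12b also passed. Directions of named genes that reversed were all of genes that were not called in the fit of all 6 groups: Cd40 (0.55) was -0.12 on log2(TPM + 0.1), -0.035 on log2(TPM + 1), -1.41 to 1.06 with 1 library left out (-1.41 without cytokine library 1) and -1.86 (called, adjusted p = 6.8e-06) without that library and medium library 3; Il12b (3.67) was -1.69 (without cytokine library 1) to 4.27 with 1 left out and -2.12 (called, 0.020) without both; Cd86 (0.19) was -0.25 (without medium library 3) to 0.68 and -0.31 without both; and Cd80 (-0.37) was -0.643 to 0.00057 (without medium library 1). The removal of both libraries was chosen after the data were seen, by their values in genes of mature dendritic cells. Values of p without them therefore do not test such genes. The cause of these shifts was not tested. Genes of a few counts, such as the Ifna genes, Ifnb1 and Ifnk, could not be compared.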

Other observations

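Asgr2, Mgl2 and Clec10a, 3 of the genes that fell most, are neighbours on chromosome 11 (Asgr2 at chr11:70092644-70106187, Mgl2 at chr11:70130125-70137542 and Clec10a at chr11:70166623-70170836, GRCm38.p6). Their log2 fold changes were -7.45, -4.75 and -4.24. Their position was looked up after their values were seen.

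Lists not described above changed as follows. Genes of prostaglandin and leukotriene synthesis and response rose in 8 of 17 tested members and fell in 4 (median 0.42). Ptger2, a receptor for prostaglandin E2, was at 6.62, 5.32 and 8.92 CPM in medium and 34.3, 39.8 and 31.1 CPM with the cytokines (2.33 ± 0.19, adjusted p = 3.4e-09). Pla2g4a, the phospholipase that releases arachidonic acid, was at 38.6, 28.6 and 38.0 CPM and 94.1, 117 and 102 CPM (1.58 ± 0.14, adjusted p = 1.8e-08), and Ltc4s, which makes leukotriene C4, at 5.26, 6.26 and 3.79 CPM and 15.7, 15.6 and 18.7 CPM (1.71 ± 0.19, adjusted p = 5.0e-07). The groups did not overlap in any of these 3 genes. Targets of ATF4, the transcription factor of amino acid stress, rose in 11 of 22 tested members and fell in 3 (median 0.23), or fell in 1 without cytokine library 1, cytokine library 2 or medium library 3. Gdf15, a stress-induced cytokine, was at 2.55, 2.92 and 3.87 CPM and 14.3, 14.9 and 13.7 CPM (2.19 ± 0.23, adjusted p = 1.4e-07). Folding genes of the endoplasmic reticulum rose in 7 of 21 and none fell (median 0.18), but 4 rose without medium library 2, and 4 rose and 2 fell on the TPM scale. Dnajb9, a co-chaperone, was at 35.8, 33.7 and 36.9 CPM and 84.7, 85 and 84.8 CPM (1.26 ± 0.12, adjusted p = 3.1e-08).

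In the NRF2, metallothionein and redox list 7 of 20 rose and 3 fell (median 0.17). Without cytokine library 2 or medium library 1, 4 rose and 1 fell, without cytokine library 1, 1 fell, on the TPM scale 4 rose and 6 fell, and with the replicate block in the fit of only these 6 libraries 6 fell. The metallothionein Mt1 was at 357, 425 and 339.9 CPM in medium and 815, 1018 and 727 CPM with the cytokines (1.19 ± 0.13, adjusted p = 1.9e-07), and Mt2 rose 3.30-fold (1.72 ± 0.21, adjusted p = 4.8e-06). Iron and haem genes rose in 4 of 15 and fell in 5 (median 0.05). Fth1, the ferritin heavy chain, which stores iron, was at 9199, 8838 and 9236 CPM and 18896, 18770.0 and 15749 CPM (0.97 ± 0.12, adjusted p = 1.1e-06), and Lcn2, lipocalin 2, which binds bacterial siderophores and is also on the granulocyte list, at 100.5, 76.8 and 42.3 CPM and 577, 427 and 646 CPM (2.91 ± 0.44, adjusted p = 0.00020). Interferon regulatory and PU.1 family factors rose in 5 of 14 and fell in 3 (median 0.31). Irf5, a factor of inflammatory macrophages, was at 569.6, 531 and 487 CPM and 294, 292 and 289 CPM (-0.86 ± 0.08, adjusted p = 6.6e-08). MYC and ribosome biogenesis genes rose in 3 of 23 and fell in 2 (median 0.04), with 1 rising without cytokine library 3, medium library 1 or medium library 2. Mxd1, an antagonist of MYC, was at 48.8, 53.8 and 26.6 CPM and 208, 189 and 193 CPM (2.19 ± 0.24, adjusted p = 2.2e-06).

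Mcpt1, a mast cell protease, had 1 count over the 3 medium libraries and was at 15.4, 6.85 and 22.2 CPM in the cytokine libraries, so no fold is given.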
